A study of Mus musculus with 6 samples.

Results

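The transcripts of the LSD1, G9a and NCoR corepressors were measured in erythroid progenitors of Bcl11a +/+ mice and of mice whose floxed Bcl11a is deleted by EpoR-Cre. The group holds 9 genes, chosen by name, and every probe set annotated to a single one of these symbols was taken. That gave 21 of the 45037 probe sets on the array. They covered 8 of the 9 genes: Kdm1a (2 probe sets), Rcor1 (3), Ehmt1 (1), Ehmt2 (2), Hdac3 (1), Sin3a (3), Tbl1xr1 (6) and Bcor (3). Ncor1 was not analysed here.

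The cells carried the erythroid surface antigens CD71 and Ter119 and were sorted from the bone marrow of female mice aged 6 weeks. Total RNA of each mouse was hybridised as biotin-labelled cRNA to 1 Affymetrix array. The 3 control mice were Bcl11a +/+. The 3 knockout mice were Bcl11a fl/fl EpoR-Cre+, in which the floxed gene is deleted by a Cre recombinase driven by the erythropoietin receptor locus. Cre was named in the knockout mice only, so its effect and that of Bcl11a loss cannot be told apart. The sources used here do not state the strain background.

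Corepressors act without reading a DNA sequence of their own. Transcription factors such as BCL11A bring them to chromatin, where they remove the marks of active genes or add marks of silent ones. LSD1, encoded by Kdm1a, is a histone demethylase that works in a complex with the scaffold CoREST, encoded by Rcor1. G9a and GLP, the products of Ehmt2 and Ehmt1, form a heterodimer that methylates histone H3 at a lysine found in repressed chromatin. The NCoR complex carries the histone deacetylase HDAC3 and the adaptor TBLR1, encoded by Tbl1xr1, while SIN3A and BCOR are scaffolds of further repressor complexes. Inhibition of LSD1 or of G9a is known to raise fetal globin in cultured erythroid cells, and these proteins are studied as partners of BCL11A in globin silencing. The comparison of knockout with control mice asks whether the transcripts of these partners themselves differ between the groups.

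None of the 21 probe sets passed the test (limma, Benjamini-Hochberg adjustment over all 45037 probe sets, threshold 0.05). The lowest adjusted p among them was 0.350, for a probe set of Tbl1xr1. Over the whole array 0.147% of the probe sets passed. An unadjusted limma p under 0.05 was found for 1 of the 21, or 4.76%, and for 12.4% of all probe sets. With variances moderated along an intensity trend, a more permissive fit that called 3.21% of all probe sets, 0 of the 21 passed and their lowest adjusted p was 0.240.

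The intervals around the estimates were narrow compared with a doubling. A gene stands here for its brightest probe set, and changes are differences of log2(intensity + 16), knockout minus control. For the 8 genes the changes ran from -0.21 to 0.20, and the 95% intervals together reached from -0.59 to 0.50. As percent differences these bounds are -33.4% and 41.1%. The intervals of all 21 probe sets lay within 1 log2 unit of no change. The test itself was less sensitive than the intervals, since at these standard errors a log2 change between 0.86 and 1.41 would have been needed to pass in the brightest probe sets. The median absolute change of the 8 genes was 0.05, beside 0.13 in the 4015 genes whose brightest probe sets lay in the same range of intensity and 0.15 over all 18193 genes.

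**Figure D1:**
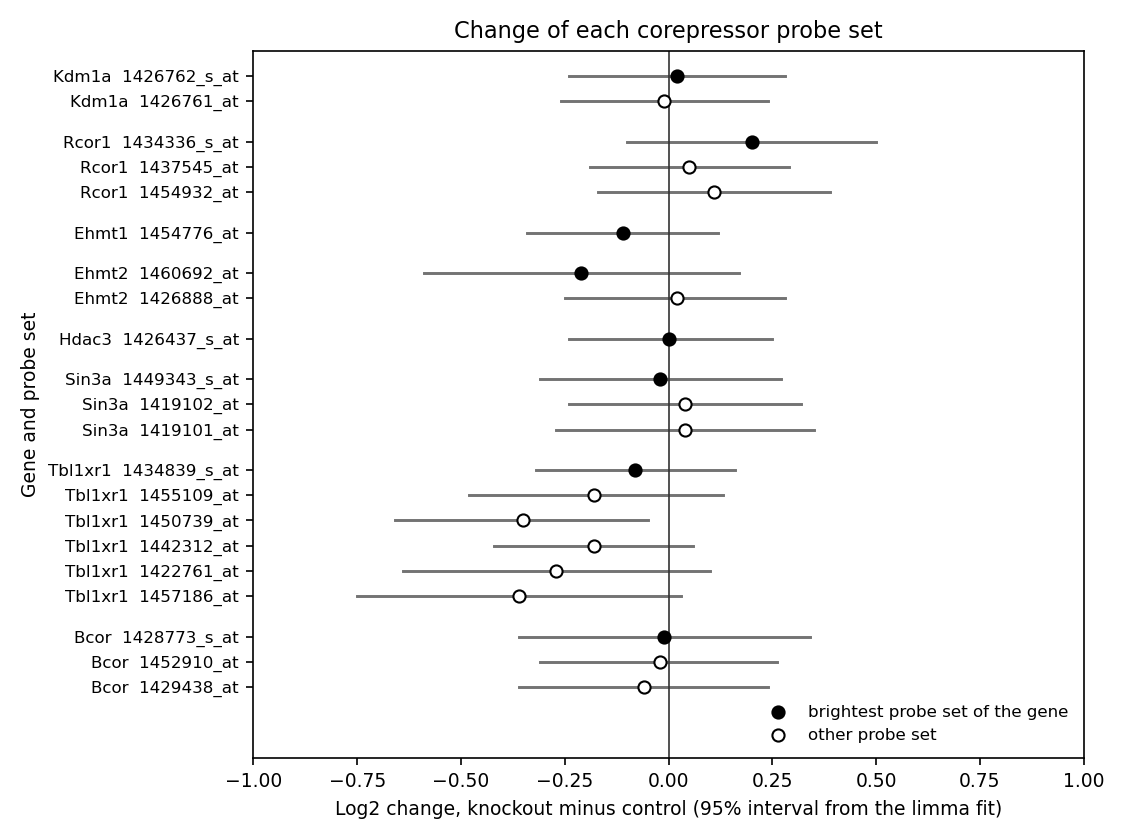
Log2 change of every probe set of the 8 measured corepressor genes, with its 95% interval; filled points are the brightest probe set of each gene. The intervals of 20 of the 21 probe sets include 0, and the exception is probe set 1450739_at of Tbl1xr1, which did not pass after adjustment (adjusted p = 0.350, limma).

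Bcl11a itself was read by 7 probe sets, none of which passed, and they did not share a direction. Without overlap between the groups, 4 lay lower in the knockouts and 2 lay higher, with changes from -0.40 (1447335_x_at) to 0.32 (1426552_a_at). Over the array 19.5% of probe sets were without overlap in either direction, and 8.91% with the knockouts lower. The 7 probe sets read 1 gene in the same mice and are not separate observations. The brightest Bcl11a probe set had intensities of 1475, 1553 and 1449.7 in the controls and 1286, 1419 and 1190.1 in the knockouts, a log2 change of -0.20 ± 0.11 (SE, adjusted p = 0.502, limma). The sources used here do not place these probes inside or outside the floxed segment, so they check nothing about the genotype. The sort was checked against marker genes. Among 8 measured erythroid markers, 7 lay at or above percentile 88.7 of all probe sets, with Tfrc, which encodes CD71, at percentile 99.7. The exception was the single-gene probe set of the adult alpha globin Hba-a1, with mean intensities of 13.7 and 16.4.

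Markers of other blood cells were bright in the same arrays. All 8 neutrophil markers lay at or above percentile 97.3, and their summed intensity ran from 179524 to 180351 in the controls and from 165863 to 173350.0 in the knockouts. All 7 measured pre-B cell markers, all 5 basophil and mast cell markers and all 6 stem and progenitor markers had changes below 0, with medians of -0.36, -0.31 and -0.29. Of the erythroid markers 6 of 8 were above 0, with a median of 0.29, and of the neutrophil markers 7 of 8 were below 0, with a median of -0.09. The summed pre-B cell markers ran from 12869 to 14765 in the controls and from 9051 to 12449 in the knockouts. The sums of the basophil and mast cell markers were 22215 to 23109.8 and 18690.5 to 22631, and those of the stem and progenitor markers 7968 to 8125 and 5157 to 6819. The sums of the erythroid markers were 64404 to 77600.2 in the controls and 80371 to 87376 in the knockouts. Macrophage (9266 to 10461 and 10262 to 10996), megakaryocyte (1564 to 1975 and 1416 to 2385) and T and NK cell markers (3049 to 3648 and 3079 to 3736) overlapped between the groups. The basophil and mast cell sums overlapped as well, and Prg2, the brightest gene in them, had a change of -0.07. How often such sums of other genes lie apart between the groups is not given here. No marker passed the test. The corepressors are made in most cell types, and the part of these other cells in their levels was not tested. In such sorted bulk RNA, fewer cells of a type and less RNA per cell cannot be told apart.

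Kdm1a, the demethylase at the centre of the LSD1 complex, had nearly the same level in both groups. Its brightest probe set read 1213.5, 1197 and 1174 in the control mice and 1167.5, 1349.7 and 1134 in the knockout mice. The groups overlapped, and knockout mouse 2 was the highest of all 6. The means were 1195 ± 19.8 and 1217 ± 116 (SD, n = 3), which is 0.02 on the log2 scale (95% interval -0.24 to 0.28, adjusted p = 0.955, limma). The second probe set of Kdm1a read 393, 408 and 402 in the controls and 359.8, 428 and 409 in the knockouts, a change of -0.01 with an interval from -0.26 to 0.24. Both probe sets thus placed the lowest value in a knockout mouse and the highest in knockout mouse 2. The direction of a change this small is not settled, and that of the brightest probe set turned under quantile normalization (-0.05) and cyclic loess normalization (-0.03).

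Rcor1, the CoREST scaffold that stabilises LSD1 and lets it act on nucleosomes, had the highest change of the 8 genes. Its brightest probe set read 1126, 1431 and 1342 in the controls and 1548, 1510.2 and 1404 in the knockouts. The groups overlapped because control mouse 2 lay above knockout mouse 3. The log2 change was 0.20 ± 0.12 (SE, adjusted p = 0.565, limma; two-sided exact permutation p = 0.2), with an interval from -0.10 to 0.50. Leaving out a mouse moved it between 0.10, without control mouse 1, and 0.27, without control mouse 2. The other probe sets of Rcor1 had changes of 0.05 and 0.11, from control means of 619 and 601 to knockout means of 642 and 650.0. All 3 changes were above 0, also under each of the 15 alternatives run on single probe sets, where they ranged from 0.00 to 0.27. Of the 2366 genes with exactly 3 probe sets, 19.2% had all 3 above 0. When the log2 values of the 3 probe sets were averaged in each mouse, the controls stood at 9.64, 9.66 and 9.62 and the knockouts at 9.73, 9.80 and 9.76, without overlap. The change of that mean was 0.12, with an interval from -0.07 to 0.31 (adjusted p = 0.553, limma; exact permutation p = 0.1, the smallest that 3 against 3 mice allow).

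Ehmt1 and Ehmt2 encode GLP and G9a, the paired methyltransferases. The 1 probe set of Ehmt1 read 1695, 1686.7 and 1773 in the controls and 1535, 1686.3 and 1559 in the knockouts. The knockout values all lay below the controls, but by less than 1 unit of intensity between control mouse 2 and knockout mouse 2. The change was -0.11 (interval -0.34 to 0.12, adjusted p = 0.695, limma), and the groups overlapped after median centring. Ehmt1 was the only one of the 8 genes whose brightest probe set did not overlap between the groups, and 21.6% of all genes were without overlap. The brighter probe set of Ehmt2 read 466, 619 and 572 in the controls and 542, 477 and 408 in the knockouts. Among the brightest probe sets it varied most between mice, with a residual SD of 0.201 on the log2 scale beside a median of 0.112 over the 8 genes. Its change was -0.21 (interval -0.59 to 0.17, adjusted p = 0.640, limma), and it moved to -0.32 without control mouse 1, to -0.12 without control mouse 2 and to -0.11 without knockout mouse 3. The dimmer probe set of Ehmt2 had means of 74.6 and 75.7 and a change of 0.02, so the pair did not share a direction.

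**Figure D2:**
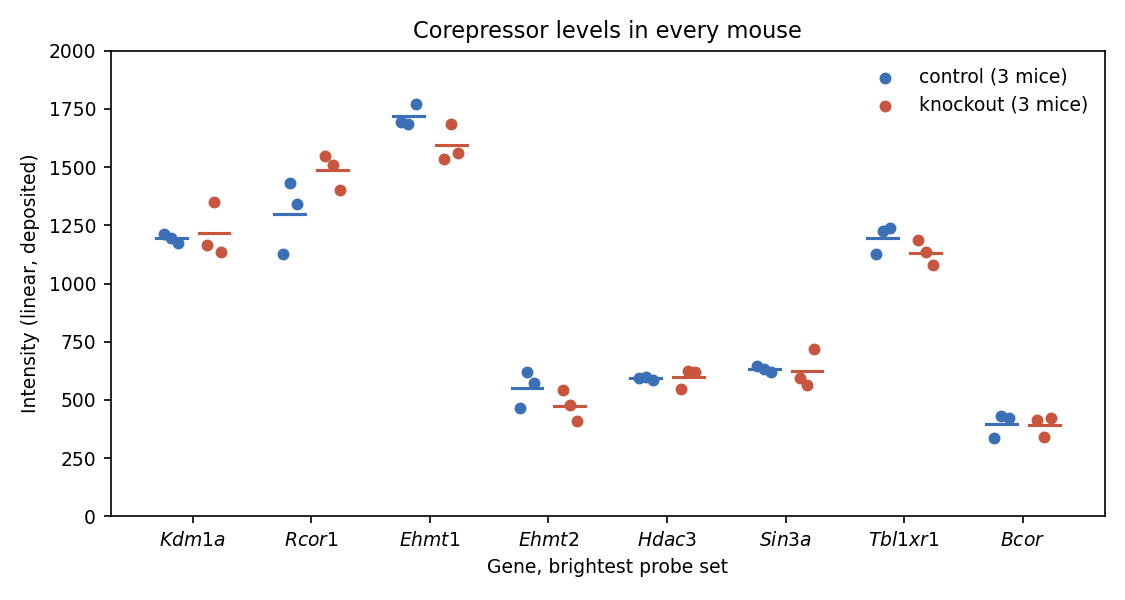
Intensity of the brightest probe set of each of the 8 corepressor genes in every mouse; points are mice and bars are group means, on a linear axis that starts at 0. The groups of 7 genes overlap, and heights of different genes are not comparable because each probe set has its own sensitivity.

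Hdac3, the deacetylase of the NCoR complex, was read by 1 probe set. Its intensities were 596, 599.9 and 587 in the controls and 546, 624 and 622 in the knockouts. The knockouts spread around the controls on both sides, and the group means were 594 ± 6.48 and 597 ± 44.5 (SD, n = 3). The change of 0.00 had an interval from -0.24 to 0.25 (adjusted p = 0.992, limma).

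Tbl1xr1 encodes TBLR1, an adaptor subunit of the NCoR complex that takes part in the exchange of corepressors for coactivators. Its brightest probe set, 1434839_s_at, read 1128, 1225 and 1238 in the controls and 1186, 1134 and 1079.7 in the knockouts. The groups overlapped, and the change was -0.08 (interval -0.32 to 0.16, adjusted p = 0.796, limma), or -0.12 without control mouse 1 and -0.04 without knockout mouse 3. The other 5 probe sets had lower estimates, from -0.18 to -0.36. Probe set 1450739_at read 166, 213 and 168 in the controls and 129, 145 and 142 in the knockouts, with every knockout below every control. Its change was -0.35 ± 0.13 (SE, adjusted p = 0.350, limma; exact permutation p = 0.1), with an interval from -0.66 to -0.05. The dimmest, 1457186_at, had a change of -0.36 and an interval from -0.75 to 0.03, and 1442312_at one of -0.18 from 154.6 ± 9.34 to 134.5 ± 7.76 (SD, n = 3). In these 3 probe sets the groups did not overlap.

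All 6 probe sets of Tbl1xr1 had changes below 0, also under each of the 15 alternatives, except that 1457186_at was too dim to be tested among the brightest 50% of probe sets. The values ranged from -0.47 to -0.04 over those alternatives, and the lowest adjusted p was 0.127, when only the brightest 50% of probe sets was tested. Of the 244 genes with exactly 6 probe sets, 9.84% had all 6 below 0. This pattern was picked out after its values were seen. Averaged over the 6 probe sets, the log2 level was 7.58, 7.78 and 7.66 in the controls and 7.51, 7.45 and 7.35 in the knockouts. Every knockout lay below every control, and the change was -0.24 (interval -0.47 to -0.01, adjusted p = 0.360, limma; exact permutation p = 0.1). Knockout mouse 3 was the lowest mouse in 3 of the 6 probe sets.

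The estimates of the Tbl1xr1 probe sets lay at different distances below 0, with intervals that overlapped each other. The log2 ratio of 1450739_at to the brightest probe set on the same array was -2.62 in the controls and -2.89 in the knockouts, a difference of -0.28 without overlap (exact permutation p = 0.1). For 1457186_at the same difference was also -0.28 without overlap. Both have the lowest estimates of the gene and the brightest probe set has the highest, so these differences follow from those estimates. How often other genes have such differences is not given here. For the other 3 probe sets it lay between -0.19 and -0.10 and the groups overlapped. The sources used here do not say which transcripts of the gene each probe set reads. The 21 probe sets of the group included 4 without overlap, all with the knockouts lower, or 19.0% of them. Over the array 8.91% of probe sets were without overlap with the knockouts lower and 19.5% in either direction. Of the 4, 3 were readings of the 1 gene Tbl1xr1 in the same mice and are not separate observations.

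**Figure D3:**
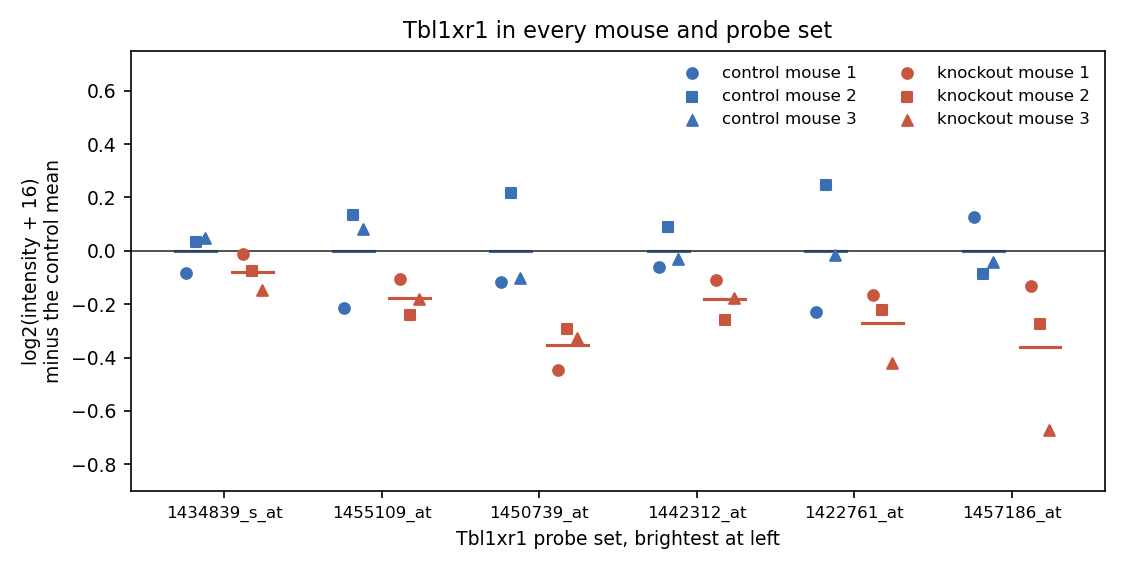
Level of Tbl1xr1 in each mouse for its 6 probe sets, as log2(intensity + 16) minus the control mean of that probe set; marker shapes tell the mice of a group apart, the same shape in both groups does not pair mice, and bars are group means. All 6 knockout means lie below 0, and the points of the 2 groups are apart in 1450739_at, 1442312_at and 1457186_at.

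Sin3a, the scaffold of the SIN3 deacetylase complex, had changes of -0.02, 0.04 and 0.04 in its 3 probe sets. The brightest read 647, 634 and 619 in the controls and 595, 565 and 719 in the knockouts, so the highest and the lowest values both came from knockout mice. Its interval ran from -0.31 to 0.27 (adjusted p = 0.958, limma). Bcor, the corepressor of BCL6 and a subunit of a variant Polycomb complex, had changes of -0.01, -0.06 and -0.02. The brightest read 335, 429 and 422 in the controls and 415, 339.8 and 420.3 in the knockouts, with an interval from -0.36 to 0.34 (adjusted p = 0.987, limma). Control mouse 1 and knockout mouse 2 were the low mice of their groups. Without control mouse 2, without control mouse 3 or without knockout mouse 2 the estimate of Bcor lay above 0, up to 0.09, and after median centring it was 0.01.

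The members shared no direction. By their brightest probe sets, 3 of the 8 genes had changes above 0 and 5 below, beside 49.8% above 0 over all genes, and the signs of Kdm1a and Hdac3 turned under quantile and cyclic loess normalization and that of Bcor under median centring. The median change was -0.02, with quartiles of -0.09 and 0.01, while over all genes it was 0.00 with quartiles of -0.14 and 0.16. Replicate spread was ordinary for their brightness, with a median residual SD of 0.112 beside 0.106 in genes of the same range of intensity. The 3 genes whose brightest probe sets followed that of Kdm1a most closely over the 6 arrays were Prkch (r = 0.982), Ssh2 (0.974) and H2-Ab1 (0.969). With only 6 arrays, 29 of 10821 genes had r above 0.9, and all 3 named genes had changes under 0.1 in size.

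The start regions of the members all had more CG pairs than the median start region, to differing degrees. RefSeq gave 10 windows of 250 bases before an annotated transcript start for 7 of the 8 measured genes on GRCm38.p6, and the windows of Bcor overlap each other. Each window had between 12 and 36 CG pairs, above the median of 6 over 32851 such windows. These counts lie at percentiles 68.5 to 97.8 of all windows, so many other windows hold as many. The GC content ran from 50.8% to 84.0%, with a median of 52.4% over all windows. The windows of Kdm1a, whose level was flat, and of Tbl1xr1, whose probe sets all lay below 0, are shown 5′ to 3′ with CG pairs in capitals, Kdm1a from chr4:136602724-136602973 on the minus strand and Tbl1xr1 from chr3:22076402-22076651 on the plus strand.
Kdm1a: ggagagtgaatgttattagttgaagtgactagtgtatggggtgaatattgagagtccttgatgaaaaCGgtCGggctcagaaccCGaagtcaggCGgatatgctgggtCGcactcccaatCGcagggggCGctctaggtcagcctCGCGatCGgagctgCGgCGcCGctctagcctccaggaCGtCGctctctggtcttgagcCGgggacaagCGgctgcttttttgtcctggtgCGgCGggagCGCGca
Tbl1xr1: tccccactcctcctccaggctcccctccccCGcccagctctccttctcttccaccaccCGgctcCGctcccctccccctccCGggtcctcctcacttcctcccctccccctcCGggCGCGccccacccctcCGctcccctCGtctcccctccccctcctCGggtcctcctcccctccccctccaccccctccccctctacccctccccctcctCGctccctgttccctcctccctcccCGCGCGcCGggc
The window of Kdm1a held 21 CG pairs and that of Tbl1xr1 held 15, within a long cytosine-rich stretch. Searched on both strands, none of the 10 windows held TGACCA, the known binding motif of BCL11A, AGATAA, a form of the GATA motif, or CCACACCC, a form of the motif of KLF factors. Over all windows 11.4% held TGACCA, 9.99% held AGATAA and 3.20% held CCACACCC. The absence says only that these letters are not in these windows.

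Around the members, 6 lists of partner genes gave 72 measured genes, each counted once. None of the 72 passed the test in either direction, beside 0.214% of all genes. Their median change was -0.01, 34 were above 0 and 38 below, and the groups did not overlap in 22 of them. That is 30.6%, beside 21.6% over all genes and 33.7% in genes of the members' range of intensity. An unadjusted limma p under 0.05 was found for 13 of the 72, or 18.1%, beside 12.7% over all genes and 16.8% in that range. In the fit with an intensity trend 8 of the 72 passed, all above 0, or 11.1%, beside 4.23% of all genes in either direction and 7.87% in that range.

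Partners of LSD1 and CoREST included the highest changes among the lists. Of 11 measured genes, 5 had changes above 0 and 6 below, with a median of -0.02. Gfi1b, an erythroid repressor that brings LSD1 and CoREST to its target genes, went from 782 ± 113 to 1205 ± 192 (SD, n = 3), a log2 difference of 0.61 with a standard error of 0.16 (adjusted p = 0.240, limma). Gse1, a protein found with the CoREST complex, went from 589.9 ± 41.2 to 894 ± 110 with a change of 0.58 ± 0.13 (adjusted p = 0.186), while its other probe sets had changes of -0.05 and 0.04. Both passed with an intensity trend (adjusted p = 0.0149 and 0.00662, limma). In the same arrays 6 of 8 erythroid markers had changes above 0, with a median of 0.29 and none past the test. Epb42, a membrane skeleton protein, had the largest change (0.75, adjusted p = 0.158, limma). The transcription factors Gata1 (0.70, adjusted p = 0.216, limma) and Klf1 (0.65, adjusted p = 0.273) came next. These genes were picked out after their values were seen. The other markers had smaller changes, with Tfrc at 0.38, Slc4a1 at 0.21, Hba-a1 at 0.14, Alas2 at -0.06 and Epor at -0.14. The part of these marker changes in the levels of Gfi1b and Gse1 was not tested. The deacetylases of the complex, Hdac1 and Hdac2, had changes of 0.06 and -0.06, and the CoREST paralogs Rcor2 and Rcor3 had changes of 0.06 and 0.16. Whether the partners changed more than Kdm1a and Rcor1 was not tested.

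Genes around G9a and of H3K9 methylation had a median of 0.00, with 6 of 12 above 0. Cdyl, which reads and bridges methylated histones, had a change of 0.33 (adjusted p = 0.277, and 0.0379 with an intensity trend, limma). Zfp644, a zinc finger partner of G9a and GLP, had a change of 0.30, and all 6 of its probe sets were above 0. Of the 244 genes with exactly 6 probe sets, 8.2% had all 6 above 0. In the NCoR and SMRT list the median was -0.14, with 2 of 9 above 0 and 7 below. The median moved to -0.090 without control mouse 1, to -0.063 without control mouse 2 and to -0.074 without knockout mouse 3. The lowest change was that of Coro2a, a protein found with the NCoR complex, which read 351.5, 406 and 318 in the controls and 287, 269.7 and 257 in the knockouts, without overlap (-0.38, adjusted p = 0.312, limma). The 2 genes above 0 were Gps2, a core subunit that binds TBLR1, which had a change of 0.35 (adjusted p = 0.256, limma), and the demethylase Kdm4a with 0.39 (adjusted p = 0.305). With an intensity trend the adjusted p was 0.0626 for Gps2 and 0.0498 for Kdm4a (limma). The other probe set of Kdm4a had a change of -0.09. Tbl1x, the X-linked paralog of Tbl1xr1, had a change of -0.04.

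The SIN3 list had a median of 0.03 and 9 of 16 genes above 0. Ogt, which adds N-acetylglucosamine to nuclear proteins, had a change of 0.37 with all 5 probe sets above 0. How many genes with 5 probe sets have all of them above 0 is not given here. The adjusted p of Ogt was 0.345, and 0.0462 with an intensity trend (limma). Arid4b, a SIN3 subunit, had a change of 0.29, and 4 of its 6 probe sets were above 0. The BCOR list had a median of 0.15 and 5 of 9 above 0. Usp7, a deubiquitinase that associates with variant Polycomb complexes, had a change of 0.41, and all 7 of its probe sets were above 0. Of the 393 genes with 6 or more probe sets, 7.12% had all of them above 0. The adjusted p of Usp7 was 0.295, and 0.017 with an intensity trend (limma). Bcorl1, the paralog of Bcor, had a change of 0.47 from 195 ± 50.9 to 275.5 ± 59.4 (SD, n = 3). Of 16 other lysine demethylases 8 were above 0, with a median of 0.00. Kdm5c and Kdm3a had changes of 0.48 and 0.51 (adjusted p = 0.180 and 0.193, and 0.00710 and 0.00558 with an intensity trend, limma). Of the 9 probe sets of Kdm5c 8 were above 0, and the remaining one had a change of -0.37. Kdm1b, the paralog of Kdm1a, had a change of -0.13.

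**Figure D4:**
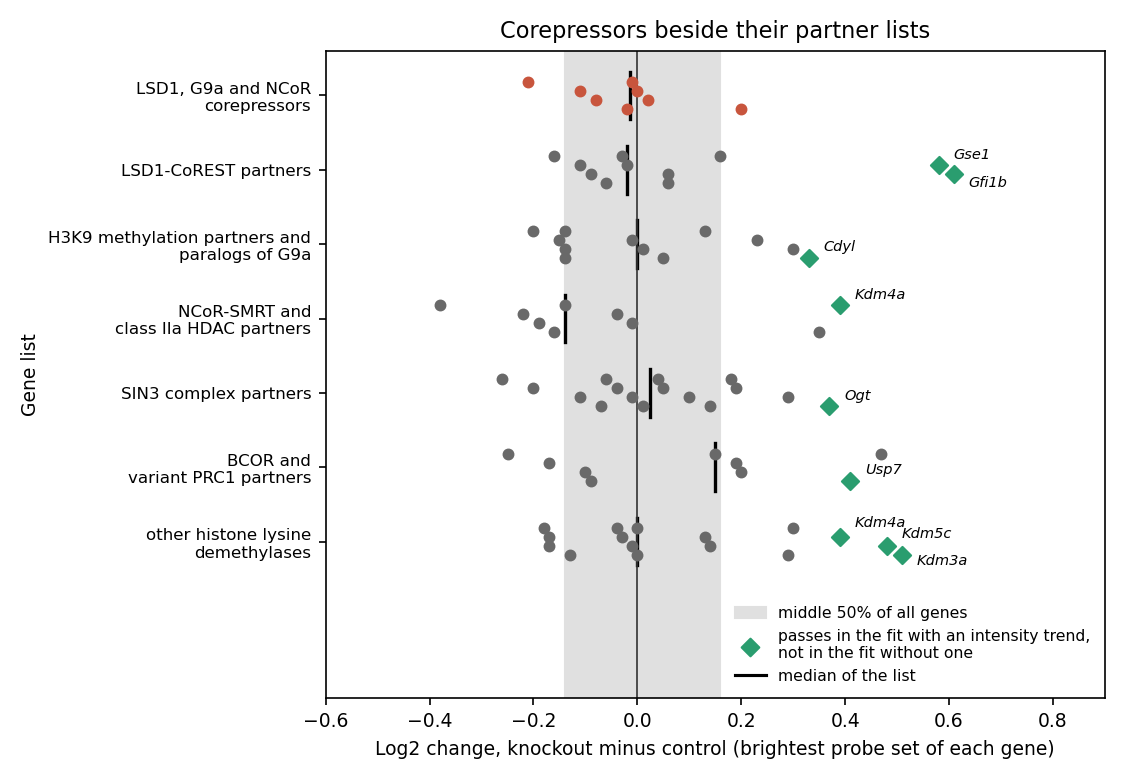
Log2 change of the brightest probe set of each gene for the 8 corepressors (top) and 6 partner lists; bars are medians, the grey band is the middle 50% of all genes, and diamonds passed in the fit with an intensity trend and not in the fit without one. The corepressors lie between -0.21 and 0.20, and Gse1 and Gfi1b lie highest among the partners, at 0.58 and 0.61.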

How the data were processed

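The deposited file of the authors gives, for every probe set and array, a linear intensity. Per the labels' protocols, Trizol-extracted total RNA was labelled with biotin by the Affymetrix procedure. The sources used here do not name the summarisation, background correction or scaling, and detection calls were not used here. Array medians lay between 67.5 and 70.9, and 1.72% to 1.94% of the values per array were exactly 1. Log2 medians differed by at most 0.0568, so no further normalization was done. Values became log2(intensity + 16), which understates changes of dim probe sets. The test was limma 3.58.1 under R 4.3.3 (lmFit, eBayes, two-sided, Benjamini-Hochberg over 45037 probe sets, threshold 0.05); the prior degrees of freedom were 2.42. The fit was tested on simulated data, with 50 brighter probe sets changed at each size. Of log2 changes of 1 and -1, 58% and 64% passed, and of 2 and -2, 100% and 94%. Of all calls in the simulation, 6.5% were false. Precision is limited by the number of mice, and 3 against 3 mice cannot give an exact permutation p below 0.1.

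Platform annotation gave 34945 probe sets 1 symbol, 932 several and 9160 none; 34741 matched RefSeq by Entrez ID. Named are all members, the 2 genes of each partner list with the smallest p, the 3 genes most like Kdm1a and Bcl11a; paralogs and complex subunits named beside them were chosen after their values were seen. Members and lists were chosen with earlier results of these data known. Alternatives were quantile, median and cyclic loess normalization, pseudocounts of 1 and 64, array weights, eBayes with intensity trend and robust moderation, the brightest 50% of probe sets, the mean of a gene's probe sets, the replicate number as a block and leaving out each mouse. Same-numbered mice of both groups did not deviate together (r between -0.040 and -0.014).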

Additional observations from a re-analysis of the deposited data

How the results depend on the processing

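No member probe set passed under any of the 15 alternatives run on single probe sets. Over the whole array, 63 probe sets rose and 3 fell, against 38 and 0 with a pseudocount of 1, 508 and 50 with a pseudocount of 64, 708 and 145 in the brightest 50% of probe sets, and 1206 and 239 with an intensity trend. Array weights gave 5 falls, the replicate block gave 14 rises and 0 falls, and leaving out a mouse gave 27 to 41 rises and 0 to 1 falls. The replicate numbers do not pair the mice, and with the block no call among the members changed. Quantile normalization gave -0.05 for Kdm1a, -0.02 for Hdac3 and -0.050 for the median of the members, and cyclic loess gave -0.03 and -0.02 for Kdm1a and Hdac3. Bcor was 0.01 after median centring, and Sin3a was 0.02 with the mean of its probe sets. Leaving out a mouse gave -0.05 to 0.07 for Kdm1a, -0.03 to 0.07 for Hdac3, -0.12 to 0.05 for Sin3a, -0.12 to 0.09 for Bcor and -0.063 to -0.006 for the members' median. Member genes without overlap numbered 1, against 0 after median centring and 3 with the mean of probe sets. Without a mouse they numbered 1 to 4, where fewer mice are compared. Over all genes 21.6% were without overlap in the main comparison. That share is not given here for the alternatives, so their counts cannot be set against a background. The cause of the other differences was not tested.

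Medians of partner lists moved under quantile normalization to -0.103 (H3K9 methylation), -0.043 (SIN3) and 0.032 (BCOR), and under cyclic loess to -0.066, -0.027 and 0.065. The mean of probe sets gave 0.188 for BCOR. Leaving out a mouse gave -0.042 to 0.028 for H3K9 methylation, -0.006 to 0.085 for SIN3, 0.020 to 0.148 for BCOR, -0.058 to 0.039 for LSD1-CoREST, -0.149 to -0.063 for NCoR-SMRT and -0.018 to 0.056 for the demethylases. No partner gene passed in the main comparison. With an intensity trend 2 passed among LSD1-CoREST partners, 3 among the demethylases and 1 in each of the other lists. In the brightest 50% of probe sets 1 and 2 passed in the same 2 lists, and 1 demethylase passed with a pseudocount of 64.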
